A study of Mus musculus with 2 samples.

Results

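CD8 T cells that carried transcripts of G2 phase and mitosis were examined among donor T cells sorted from the spleens of mice with acute graft-versus-host disease. Of 14973 cells kept in 2 libraries, 11406 passed the gate for CD8 T cells, and 3142 of these were G2/M CD8 T cells (1504 at day +7 and 1638 at day +14). The cells were chosen by the UMIs (unique molecular identifiers, 1 per captured RNA molecule) of 6 genes, Ccnb1, Ccnb2, Cdc20, Cenpf, Ube2c and Plk1, which together had to reach 10 per 10000 UMIs of the cell. The CD8 gate required at least 3 UMIs of the T cell receptor complex genes Cd3d, Cd3e, Cd3g, Trac, Trbc1 and Trbc2, at least 2 UMIs of Cd8a and Cd8b1, and none of Cd4 or Foxp3. The 6 genes and the gate are therefore no finding, and neither is any gene that differs between these cells and other CD8 T cells of the same library.

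Recipients were lethally irradiated BALB/c (H-2d) mice that received T cell-depleted bone marrow and purified splenic T cells from C57BL/6 (H-2b) donors. The study's methods give an age of 6 to 12 weeks and name female mice in one place and both sexes in another, and the labels give no sex for these libraries. The wild-type donor cells, gated as TCRβ+ and CD45+ and as positive for donor H2Kb and negative for recipient H2Kd, were sorted on day +7 or day +14 after transplantation and pooled from 5 spleens. Both libraries carry PBS in their names, and no untreated, syngeneic or day 0 library was analysed here. The protocol text attached to both libraries describes a sort on day +7, so the day was taken from each library's title. There was 1 library per day, so no test was made, the day and the library cannot be told apart, and the 95% intervals in brackets (exact Poisson for levels, Clopper-Pearson for shares, exact conditional binomial for ratios) cover counting error only.

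A cell that has copied its DNA passes through G2 and then divides. Cyclin B, made from Ccnb1 and Ccnb2, activates the kinase Cdk1 and drives the cell into mitosis, Plk1 is a kinase of mitotic entry and spindle assembly, and Cenpf is a protein of the kinetochore, where chromosomes attach to the spindle. Cdc20 and Ube2c belong to the anaphase-promoting system, which marks cyclin B and securin for destruction so that the chromosomes separate. Donor CD8 T cells are known to divide rapidly when they meet recipient antigens early after transplantation.

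The promoters of the 6 genes are shown because they share short motifs that the choice of cells did not use. Capitals mark TTTGAA or TTTAAA, the cell cycle genes homology region (CHR) known from late cell cycle promoters, and CCAAT, the NF-Y box, each on either strand. The letters TTTAAA read the same on both strands. Each line runs 5′ to 3′ along the gene's own strand, from 110 bases before the RefSeq start to 10 bases after it, in build GRCm38.p6.
Ccnb1 (chr13:100786477-100786596, minus strand): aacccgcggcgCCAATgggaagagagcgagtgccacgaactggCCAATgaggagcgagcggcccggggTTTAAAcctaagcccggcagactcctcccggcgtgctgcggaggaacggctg
Ccnb2 (chr9:70421545-70421664, minus strand): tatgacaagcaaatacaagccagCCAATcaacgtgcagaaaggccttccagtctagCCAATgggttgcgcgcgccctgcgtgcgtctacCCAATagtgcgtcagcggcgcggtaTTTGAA
Cdc20 (chr4:118437334-118437453, minus strand): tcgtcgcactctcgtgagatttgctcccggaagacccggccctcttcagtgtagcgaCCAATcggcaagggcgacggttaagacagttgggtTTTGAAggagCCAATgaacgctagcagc
Cenpf (chr1:189688077-189688196, minus strand): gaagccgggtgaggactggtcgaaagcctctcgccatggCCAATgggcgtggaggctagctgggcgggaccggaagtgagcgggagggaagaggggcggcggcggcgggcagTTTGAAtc
Ube2c (chr2:164769819-164769938, plus strand): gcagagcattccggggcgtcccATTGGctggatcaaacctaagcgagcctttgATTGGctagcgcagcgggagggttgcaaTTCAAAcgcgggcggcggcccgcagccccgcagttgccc
Plk1 (chr7:122159325-122159444, plus strand): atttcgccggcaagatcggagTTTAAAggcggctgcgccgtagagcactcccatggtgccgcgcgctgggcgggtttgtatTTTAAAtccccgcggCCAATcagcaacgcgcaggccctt
All 6 promoters of 300 bases (250 before the start and 50 after) held a CHR and a CCAAT motif. Among 27025 promoters of the same length, 27.8% held a CHR, 37.9% held a CCAAT and 10.9% held both. The promoter of Mcm6, a subunit of the replicative helicase that is transcribed for S phase, is shown for contrast, with E2F motifs (TTTCCCGC, TTTCGCGC, TTTGCCGC or TTTGGCGC) also in capitals. The first capitals of the line join 2 overlapping E2F motifs on opposite strands.
Mcm6 (chr1:128359696-128359815, minus strand): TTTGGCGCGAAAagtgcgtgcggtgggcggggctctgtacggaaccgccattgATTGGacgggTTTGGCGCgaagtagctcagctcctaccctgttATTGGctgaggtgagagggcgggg
None of the 6 promoters of the rule held an E2F motif in its 300 bases, against 4 of 6 of the MCM and Pcna genes used to mark S phase and 2.32% of all promoters. A CHR was found in 2 of these 6 S phase promoters and a CCAAT in 6 of 6, so the CCAAT did not set the G2/M genes apart from them. Outside the rule, 146 genes were at least 2-fold higher in G2/M CD8 T cells than in other CD8 T cells of both libraries, and 107 of them had a promoter entry. Of these 107 promoters, 61.7% held a CHR, 67.3% a CCAAT and 49.5% both. Among the 5464 genes tested between days that had an entry, the shares were 19.9%, 39.7% and 8.42%. An E2F motif was held by 9 of the 107 promoters (8.41%) and by 5.09% of the 5464. The lack of an E2F motif in the 6 promoters of the rule thus did not extend to all of the 107. Motif matches are a description of these letters, and binding was not measured.

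G2/M cells made up similar shares of the CD8 T cells of both libraries. They were 1504 of 5629 CD8 T cells at day +7 (26.7% [25.6, 27.9]) and 1638 of 5777 at day +14 (28.4% [27.2, 29.5]). The order of the days depended on the threshold, since at 5 UMIs per 10000 the shares were 44.8% and 43.4% and at 20 they were 11.6% and 13.9%. Each cell was also thinned to 4000 UMIs and gated again. The depth limit alone left out 74 CD8 T cells at day +7 and 404 at day +14. After thinning, 4750 cells at day +7 and 4974 at day +14 passed the CD8 gate. The shares of G2/M cells among them were 31.0% [29.7, 32.3] and 33.2% [31.8, 34.5]. Of CD4 T cells without Foxp3, 96 of 459 reached the same threshold at day +7 (20.9% [17.3, 24.9]) and 104 of 697 at day +14 (14.9% [12.4, 17.8]).

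The 6-gene score had no gap at the threshold, so the G2/M cells are a range of a continuous score. No clustering was run, so whether they form a separate cluster by other genes was not tested. At day +7, 222 of them lay between 10 and 12 per 10000 and 320 other CD8 T cells lay between 8 and 10. At day +14 these numbers were 213 and 280. The median score was 18.2 at day +7 and 19.7 at day +14, and the highest was 68.6 and 78.3. All 6 genes had a UMI in 824 of 1504 G2/M cells at day +7 and in 953 of 1638 at day +14. The median depth of G2/M cells was 13280 UMIs at day +7 and 12779 at day +14, against 7174 and 5667 in the CD8 T cells that carried neither G2/M nor S phase transcripts.

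**Figure D1:**
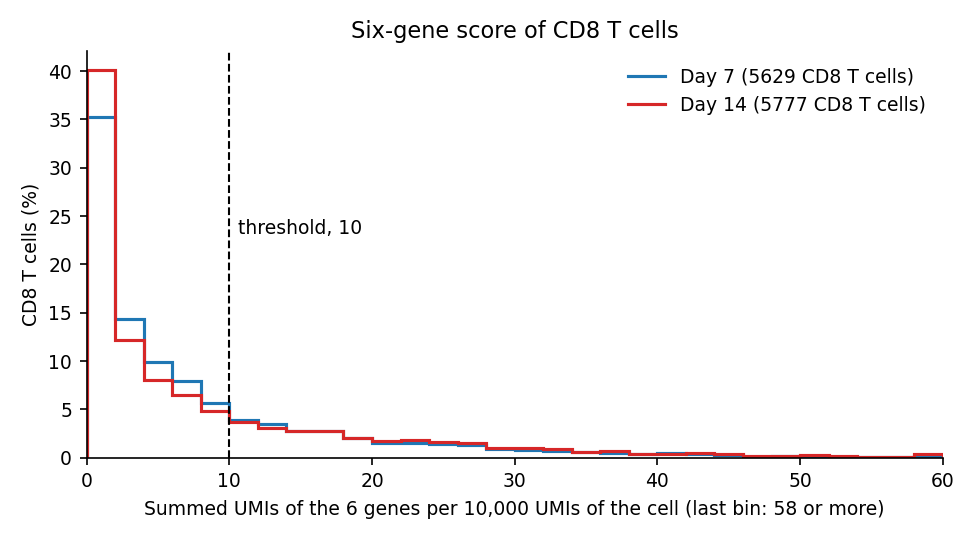
Share of CD8 T cells (%) by the summed UMIs of the 6 genes per 10,000 UMIs of the cell, in bins of 2, for day +7 (blue, 5629 cells) and day +14 (red, 5777 cells), with the threshold of 10 as a dashed line. Both curves fall without a gap through the threshold.

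The 6 genes themselves were at nearly equal levels in the G2/M cells of both libraries. This is no finding, since the same threshold on their sum chose the cells of both. Levels are UMIs summed over cells and scaled to the total of those cells (CPM, counts per 1000000). Ccnb1 was at 186 CPM at day +7 and at 198 CPM at day +14, Cdc20 at 236 and 241 CPM, and Plk1 at 135 and 143 CPM. Ube2c was at 922 and 878 CPM, Ccnb2 at 358 and 332 CPM and Cenpf at 312 and 380.5 CPM. Ccnb2 was also the least selective of the 6, with 125 CPM in other CD8 T cells at day +7 and 109.7 CPM at day +14, whereas Cenpf was at 27.2 and 32.7 CPM there. Cd8b1, the beta chain of the CD8 coreceptor, had a UMI in 99.9% of G2/M cells at day +7 and in 98.7% at day +14, as the gate favours.

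Markers of other cells were mostly at low summed levels in G2/M cells, but UMIs of B cell genes were widespread. These genes had a UMI in 73.5% of G2/M cells at day +7 and 70.3% at day +14, with medians of 2 and 1 UMIs. The shares in other CD8 T cells were 68% and 56.8%. Cd4 and Foxp3 were at 0 by the gate. Zbtb7b and Cd40lg, the other genes of the CD4 T cell list, brought its sum in G2/M cells to 20.4 CPM (day +7) and 6.05 CPM (day +14). A UMI of this list was found in 23.1% and 8% of G2/M cells, against 17% and 6.35% of other CD8 T cells. Day +7 and day +14 G2/M cells held 5.01 and 0.605 CPM of the NK cell genes Klrb1c and Ncr1, 0.126 and 0.564 CPM of platelet genes, 37.5 and 45.6 CPM of macrophage genes, 27.0 and 17.4 CPM of erythroid genes, and 148 and 167 CPM of B cell genes. The B cell marker Ms4a1 and the platelet marker Pf4 were at 0 in the day +7 cells, and the platelet marker Ppbp in both libraries. The 7 granulocyte genes were uneven: their 10695 UMIs at day +7 and 24050 UMIs at day +14 lay to 97.0% and 96.5% in the 10 G2/M cells with the most of them, and a single cell held 9415 of them at day +7 and 10342 at day +14. Without those 10 cells per library the level was 13.5 CPM at day +7 and 33.8 CPM at day +14. Scrublet called no doublets in either library, so doublets were kept. The highest Scrublet scores, taken at 0.8% per 1000 barcodes, included 7.58% of the G2/M cells and 5.36% of other CD8 T cells at day +7, and 8.97% and 5.0% at day +14. The libraries shared 17 kept barcodes, 2 of them in G2/M cells.

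Genes of mitosis outside the rule were higher in G2/M cells than in other CD8 T cells, in the same order of roles in both libraries. These values describe the selection and support nothing. At least 2-fold higher were 2.87% of the 6587 genes tested at day +7 and 2.29% of the 7022 tested at day +14, and at least 2-fold lower were 0.243% and 0.128%. Log2 ratios were computed with 1 CPM added to both levels, and the intervals of ratios were computed without it.

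Spindle genes had the highest median of these lists outside the rule, with 19 of 20 at least 2-fold higher in each library and medians of 2.0 at day +7 and 1.87 at day +14. Aspm, which organizes spindle poles, was at 67.1 CPM in G2/M cells and 8.62 CPM in other CD8 T cells at day +7, and at 91.9 and 12.1 CPM at day +14. Aurka, the kinase that matures centrosomes, was at 79.5 against 11.6 CPM at day +7 and 75.8 against 11.6 CPM at day +14. Hmmr, Nusap1 and Tpx2, which bind spindle microtubules, had log2 ratios of 2.52, 2.68 and 2.29 at day +7 and 2.56, 2.45 and 2.22 at day +14. The tubulin genes Tubb5 and Tuba1b, which all cells use, had smaller ratios of 1.05 and 1.13 at day +7 and 1.05 and 1.02 at day +14. Cytokinesis genes were at least 2-fold higher in 13 of 13 cases in each library, with log2 ratios from 1.32 to 2.18 at day +7 and from 1.31 to 2.09 at day +14, a narrower range than the 0.85 to 2.82 and 0.70 to 2.82 of the spindle genes. Among them Birc5, the survivin of the chromosomal passenger complex, was at 871 against 283 CPM at day +7 and at 715 against 220 CPM at day +14.

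Kinetochore genes were at least 2-fold higher in 14 of 18 cases in each library. Cenpe, a motor that carries chromosomes to the spindle equator, was at 181 against 36.8 CPM at day +7 and 199 against 42.8 CPM at day +14. Cenpw, a protein of the inner kinetochore, was below 2-fold in both libraries, with log2 ratios of 0.59 and 0.51. Genes of mitotic entry included Cdk1, at 277 against 68.6 CPM at day +7 and 311 against 88.7 CPM at day +14. Of the 7 spindle checkpoint genes, which hold anaphase until all chromosomes are attached, 7 were at least 2-fold higher at day +7 and 5 at day +14. Anaphase genes were the most mixed of these lists, with 5 of 14 at least 2-fold higher in each library: Ube2s, which extends ubiquitin chains for the anaphase-promoting complex, had log2 ratios of 1.44 and 1.33, and the subunit Anapc5 had 0.35 and 0.34.

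**Figure D2:**
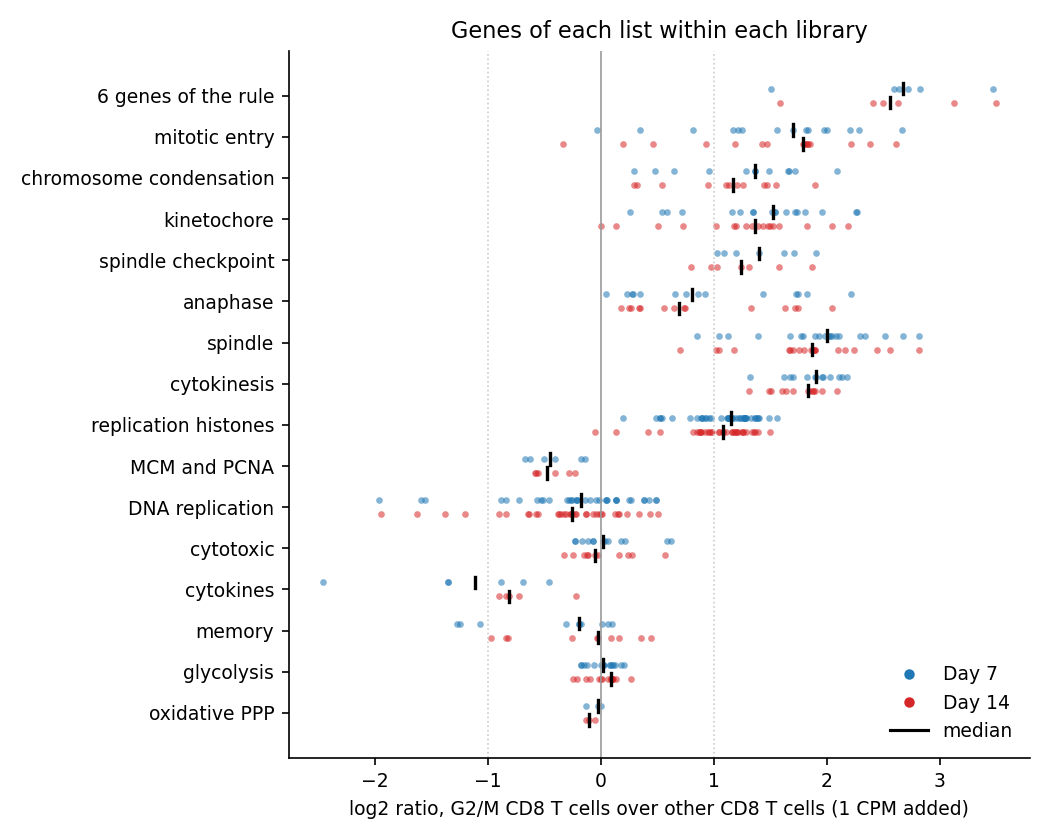
Log2 ratio of each gene's level in G2/M CD8 T cells over other CD8 T cells (1 CPM added) by gene list, for day +7 (blue) and day +14 (red), with 1 point per gene with a mean of at least 10 CPM and a black bar at the median. The medians of the mitotic lists outside the rule lie from 0.70 to 2.0, with 1 mitotic entry gene below 0 in each library and 1 kinetochore gene at day +14, the cytokines lie below 0, and the cytotoxic, glycolysis and PPP lists lie about 0.

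Between the days, the mitotic genes of G2/M cells differed little, and so did most of all genes tested. The 6798 genes tested averaged at least 10 CPM over the G2/M cells of the 2 libraries. Of these, 128 were at least 2-fold higher at day +14 (1.88%) and 99 at least 2-fold lower (1.46%). The median log2 ratio over all of them was 0.16, and scaling by the median ratio gave 81 higher and 125 lower, so the balance of higher and lower genes rests on the scaling. None of the 16 mitotic entry, 12 condensation, 18 kinetochore, 7 checkpoint, 14 anaphase, 20 spindle or 13 cytokinesis genes differed 2-fold between the days, and their list medians lay between 0.06 and 0.19. These medians lay around the 0.16 of all genes. None of these mitotic genes differed 2-fold between the days in other CD8 T cells either. The same threshold on mitotic genes split the CD8 T cells of both libraries, so like levels may follow from that choice. The comparison therefore cannot tell whether mitotic genes were alike between the days apart from it. Top2a, which untangles sister chromosomes, was at 629 CPM at day +7 and at 747 CPM at day +14. The chromatin protein gene Hmgb2 was at 6418 and 6007 CPM.

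Replication-dependent histone genes, whose products package newly made DNA, were lower in the G2/M cells of day +14. Their sum was 11828 CPM [11784, 11872] at day +7, against 5286 CPM [5258, 5315] at day +14. Of the 42 genes tested, 30 were at least 2-fold lower and none at least 2-fold higher, with a median log2 ratio of -1.15 that lay between -1.30 and -1.08 under 13 other settings. The linker histone gene Hist1h1b was at 2076 CPM at day +7 and at 1495 CPM at day +14 (log2 ratio -0.47 [-0.49, -0.45]), the smallest shift of the 3 histone genes at the highest levels. Hist1h4d, a histone H4 gene, was at 1809 and 723 CPM (-1.32 [-1.35, -1.30]). Hist1h2ap and Hist1h4h were among the 10 lowest ratios of all genes at 50 CPM or more, at 727 and 116 CPM (-2.63) and at 173 and 35.4 CPM (-2.25). The linker H1 genes had a median of -1.03, and those of H2A, H2B, H3 and H4 had medians of -1.12, -1.17, -1.16 and -1.26. Many of these genes are near-identical copies, so the level of a single one is less certain than the sum. How completely histone transcripts were captured was not measured. The histone list held every gene symbol that starts with Hist1h, Hist2h, Hist3h or Hist4h.

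The days differed most at the histone-rich end of the G2/M cells. The median G2/M cell held 41.9 histone UMIs per 10000 at day +7 and 44.8 at day +14, whereas the upper quartile was 218 at day +7 and 89.7 at day +14 and the lower quartile was 12.3 and 7.04. Few cells lay near the median of day +7. There 40.6% of G2/M cells held under 20 per 10000 and 2.06% held 40 to 60. At day +14 these shares were 41.9% and 9.52%. The like medians therefore do not mean that most cells held like levels. In S phase CD8 T cells, those below the G2/M threshold with at least 10 UMIs of Mcm2, Mcm3, Mcm5, Mcm6, Mcm7 and Pcna per 10000, the median went from 61.8 to 12.8. In the remaining CD8 T cells it was 8.89 and 2.96. The summed histone level was lower at day +14 in all 3 classes, by log2 ratios of -1.16 [-1.17, -1.15] in G2/M, -1.38 [-1.39, -1.37] in S phase and -1.43 [-1.46, -1.40] in remaining cells.

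**Figure D3:**
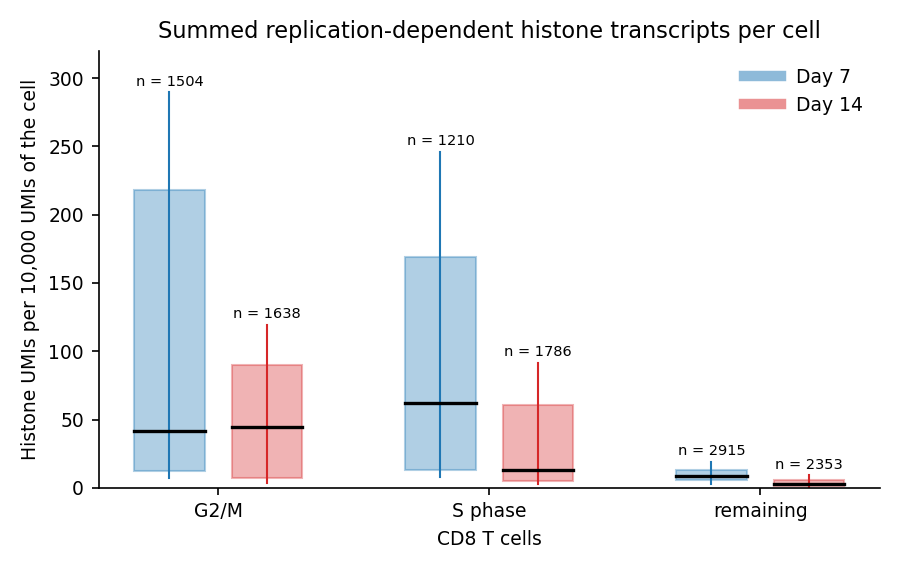
Summed histone UMIs per 10,000 UMIs of the cell in G2/M, S phase and remaining CD8 T cells at day +7 (blue) and day +14 (red), where boxes span the quartiles, black bars the median and lines the 10th to 90th percentile of cells. In G2/M cells the medians are 41.9 and 44.8, but both quartiles are lower at day +14. The lower quartile is 12.3 at day +7 and 7.04 at day +14, and the upper quartile is 218 and 89.7.

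Histone transcripts also divided the G2/M cells by which cell cycle genes they held, in the same way in both libraries. G2/M cells above the upper quartile of histone UMIs per 10000 (histone-rich) were set beside those below the lower quartile (histone-poor). Top2a was at 1054 CPM in the histone-rich and 303 CPM in the histone-poor cells at day +7, and at 1260 and 326 CPM at day +14. Rrm2, the small subunit of the reductase that makes deoxyribonucleotides, was at 317 and 117 CPM at day +7 and at 287 and 98.2 CPM at day +14. Mki67, which coats mitotic chromosomes, was at 747 and 394 CPM at day +7 and at 928 and 398 CPM at day +14.

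Ccnb2, Cdc20 and Cenpa ran the other way. Ccnb2 was at 302 CPM in the histone-rich and 444 CPM in the histone-poor cells at day +7, and at 283 and 429 CPM at day +14. Cdc20 was at 192 and 295 CPM at day +7 and at 212 and 311 CPM at day +14. Cenpa, the histone H3 variant of centromeres, was at 434 and 716 CPM at day +7 and at 558 and 804 CPM at day +14. Plk1 did not follow Cdc20: it was at 169 and 106 CPM at day +7 and at 181 and 110.2 CPM at day +14. These are descriptions of cells ordered by their own transcripts, and no test was made.

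S phase transcripts were still present in a part of the G2/M cells, and more so at day +14. At least 10 UMIs of the 6 S phase genes per 10000 were present in 249 of 1504 G2/M cells at day +7 (16.6% [14.7, 18.5]) and in 501 of 1638 at day +14 (30.6% [28.4, 32.9]). At 4000 UMIs per cell the shares were 24.0% [21.9, 26.3] and 39.4% [37.0, 41.8]. The share was higher at day +14 under each threshold and cell filter tried. It was not particular to G2/M cells: at 4000 UMIs, other CD8 T cells with S phase transcripts were 27.1% [25.6, 28.7] at day +7 and 42.8% [41.1, 44.5] at day +14, and the S phase class was 21.5% and 30.9% of all CD8 T cells without thinning. The 6 genes summed to 655 CPM [645, 665] at day +7 and to 888 CPM [877, 900.2] at day +14, and all 6 had positive log2 ratios between the days, from 0.26 to 0.83. Mcm6 had the largest of them, with 98.2 CPM at day +7 and 175 CPM at day +14, and Pcna, the sliding clamp of DNA polymerase, was at 200.1 and 255 CPM. In S phase CD8 T cells these sums were 1533 and 1723 CPM.

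Of 32 other DNA replication genes tested between the days in G2/M cells, none differed 2-fold, and their median was 0.17 against 0.16 over all genes. Against other CD8 T cells, 3 of 34 replication genes were at least 2-fold lower in G2/M cells at day +7 and 4 of 34 at day +14. These were Ccne2 (cyclin E2) at 9.80 against 31.5 CPM at day +7 and 9.84 against 32.4 CPM at day +14, Cdc6, which loads the helicase, at 8.79 against 27.7 CPM and 12.2 against 33.4 CPM, and the uracil glycosylase Ung at 5.89 against 25.9 CPM and 8.95 against 37.2 CPM. E2f1, an activator of S phase genes, was the fourth at day +14, at 12.8 against 30.9 CPM. These 4 genes, and Cdkn1a, Cdkn1b, Cdkn2c, Prf1, Gzmk, Il7r, Tcf7, Cx3cr1, Gzmc, Gzmm, Serpinb6b, Tnfsf10, Slc2a1, Tpi1, Pfkl and Shmt1 in what follows, were named after their values were seen.

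Among cell cycle inhibitors, Cdkn2d and Cdkn2c, which block the G1 kinases Cdk4 and Cdk6, were higher in G2/M cells. Cdkn2d was at 203 CPM [198, 209] in G2/M, 76.8 CPM in S phase and 79.6 CPM in remaining CD8 T cells at day +7, and at 134 CPM [129.6, 139], 44.4 and 57.0 CPM at day +14. Within G2/M cells it was at 331 CPM in the histone-rich and 103 CPM in the histone-poor cells at day +7, and at 216 and 74.1 CPM at day +14. Cdkn2c was at 44.6 against 13.9 CPM in other CD8 T cells at day +7 and 48.1 against 18.4 CPM at day +14. Cdkn1a and Cdkn1b, which inhibit a wider set of cyclin-dependent kinases, had log2 ratios over other CD8 T cells of -0.09 and 0.26 at day +7 and -0.25 and -0.00 at day +14. Of 14 genes of G1 control tested between the days, Ccnd2, Cdkn2a and Rbl2, also named after their values were seen, were at least 2-fold higher at day +14 (log2 ratios 1.08, 1.52 and 1.26) and none was lower. This was not particular to G2/M cells. In other CD8 T cells 3 of the 14 were at least 2-fold higher at day +14, with a list median of 0.50 against 0.40 in G2/M cells. None of the 12 p53 target genes tested at day +7 and 11 at day +14 was 2-fold higher or lower in G2/M cells than in other CD8 T cells.

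Granzyme and Ifitm genes were among those with the largest differences between the days in G2/M cells. Gzma, the tryptase of cytotoxic granules, was at 3784 CPM [3759, 3808] at day +7 and at 235 CPM [229, 241] at day +14 (log2 ratio -4.01 [-4.05, -3.97]). At 4000 UMIs per cell, Gzma was found in 85.9% of G2/M cells at day +7 and 21.2% at day +14 (92.6% and 32.8% without thinning). In barcodes with at least 100 granulocyte UMIs and no T cell receptor UMI, which should lack Gzma, it was found in 1 of 23 (4.35%) and 1 of 17 (5.88%) at the same depth, their full median depths being 10297 and 5072 UMIs. Without thinning, Gzma was found in 20.8% of 24 such barcodes at day +7 and 7.14% of 28 at day +14. Gzmb, which starts apoptosis in target cells, was at 1601 CPM [1585, 1617] at day +7 and at 591 CPM [581, 600.2] at day +14. It was found in 95.7% and 72.1% of G2/M cells at 4000 UMIs, against 0 of 23 and 0 of 17 of those barcodes, which allows shares of up to 13.0% and 17.6% by a limit of 3 counts (Clopper-Pearson upper bounds 14.8% and 19.5%). Without thinning, Gzmb was found in 4.17% and 0% of them.

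Not every cytotoxic gene was lower. Of the 13 tested, 5 were at least 2-fold lower at day +14 and 1 was higher. The lower ones were Gzma, Gzmb, Gzmc (34.6 and 2.58 CPM), Gzmm (24.8 and 1.49 CPM) and the granzyme inhibitor gene Serpinb6b (579 and 235 CPM), and the higher one was Tnfsf10, the death ligand TRAIL. Nkg7, a granule membrane protein of killer cells, was at 2016 and 2396 CPM and was found in 99.3% and 99.7% of cells at 4000 UMIs. Prf1, the pore-forming perforin, was at 206 CPM at day +7 and at 169 CPM at day +14. Gzmk was at 108 CPM at day +7 and at 176 CPM at day +14 (log2 ratio 0.70). Within each library the cytotoxic list did not set G2/M cells apart, with medians over other CD8 T cells of 0.02 at day +7 and -0.05 at day +14 and no gene past 2-fold.

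The membrane proteins that restrict virus entry, Ifitm1, Ifitm2 and Ifitm3, were far lower in G2/M cells at day +14. Ifitm2 was at 239 CPM [233, 245] at day +7 and at 4.03 CPM [3.28, 4.90] at day +14, Ifitm1 at 361 and 9.15 CPM, and Ifitm3 at 123 and 7.46 CPM. These were the 3 interferon-induced genes of the 11 tested that were at least 2-fold lower, and none was 2-fold higher. Ly6a, another interferon-induced gene, was at 649 CPM at day +7 and at 573 CPM at day +14, and Ifi27l2a was at 389.8 and 369.9 CPM. Ifitm genes are also expressed by granulocytes: at 4000 UMIs, Ifitm2 was found in 78.3% of the granulocyte-gene barcodes at day +7 and in 52.9% at day +14, against 34.6% and 1.61% of G2/M cells.

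Fcer1g, a signalling adaptor of NK cells and activated T cells, went from 182 CPM at day +7 to 16.7 CPM at day +14 in G2/M cells. The chemokine receptor gene Ccr2 was at 67.6 and 11.7 CPM, Ggt1, which cleaves extracellular glutathione, at 97.4 and 19.4 CPM, and AA467197 at 151 and 25.3 CPM. Of 9 memory genes tested, 2 were at least 2-fold lower and none higher: Il7r, the interleukin-7 receptor chain, was at 24.1 and 5.24 CPM, and S1pr1, needed for exit from lymphoid organs, was at 105 and 51.7 CPM, and its 2-fold call was kept under 10 of 13 other settings. Tcf7, the factor of stem-like T cells, was low in both, with 4.42 CPM at day +7 and 9.92 CPM at day +14.

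Cd7, Tox, Eomes and Ikzf2 were among the genes higher at day +14. Cd7, a costimulatory surface protein, was at 35.3 CPM [33.0, 37.8] at day +7 and at 540.1 CPM [531, 549] at day +14 (log2 ratio 3.90 [3.83, 4.04]). It was found in 13.6% and 69.7% of G2/M cells at 4000 UMIs (32.5% and 85.0% without thinning), against 0 of 23 and 0 of 17 granulocyte-gene barcodes. Without thinning, Cd7 was found in 0% and 10.7% of such barcodes. Tox, a factor of exhausted T cells, was at 63.1 CPM [59.9, 66.3] and 203 CPM [197, 209] and was found in 18.4% and 51.3% of cells. Eomes, a T-box factor of effector and memory cells, was at 21.0 CPM [19.2, 22.9] and 102 CPM [97.8, 106]. Ikzf2 was at 14.1 and 82.7 CPM, Msi2 at 23.9 and 98.5 CPM and Trps1 at 13.5 and 51.8 CPM.

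Most inhibitory receptor genes did not differ 2-fold. The receptor Cd160 was at 117 CPM at day +7 and at 245 CPM at day +14 (log2 ratio 1.05), and its 2-fold call was kept under 11 of 13 other settings, with a lowest value of 0.89. Pdcd1, the receptor PD-1, was at 174 and 238 CPM (0.45). Of the 9 inhibitory genes tested, Tox and Cd160 were the 2 at least 2-fold higher, and none was lower. Against other CD8 T cells the inhibitory list had a median of -0.16 in both libraries. The coreceptor chains moved apart: Cd8a was at 204 CPM at day +7 and at 476 CPM at day +14 (1.22 [1.17, 1.27]), and Cd8b1 at 682 and 556 CPM (-0.29).

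**Figure D4:**
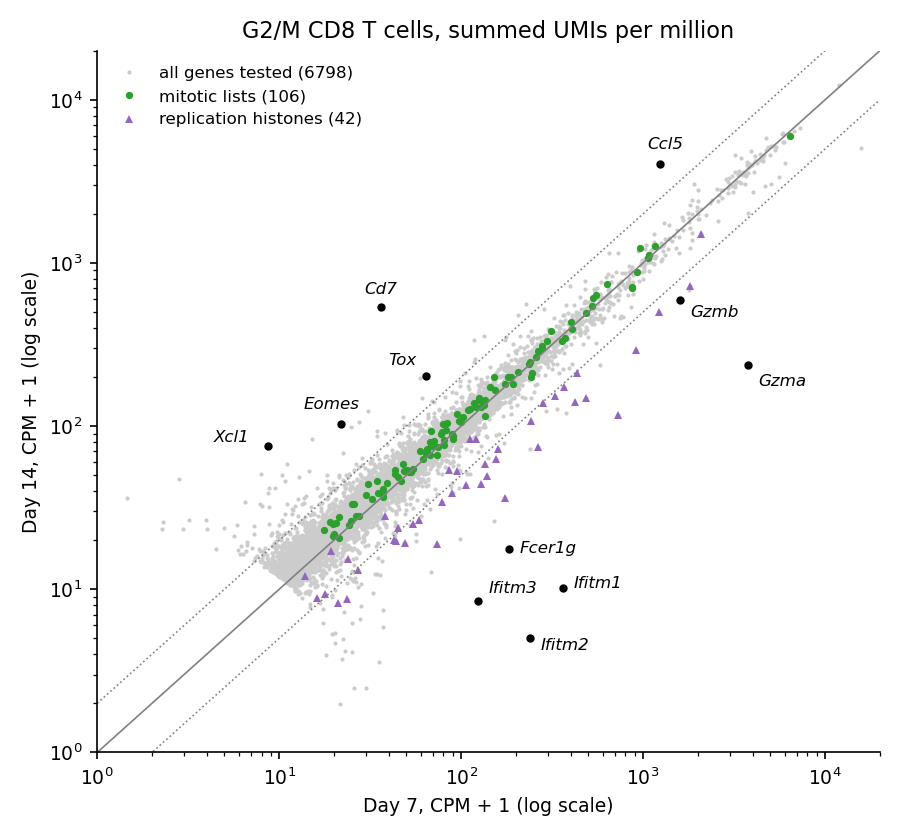
Level of each tested gene in G2/M CD8 T cells at day +7 (horizontal) and day +14 (vertical), as CPM plus 1 on log scales, with mitotic lists in green, replication-dependent histones as purple triangles and some named genes in black. The solid line marks equal levels and the dotted lines 2-fold differences. The green points stay between the dotted lines, but the same threshold on mitotic genes chose the cells of both days. Of the histones, 30 of 42 lie below the lower dotted line, and Gzma and the Ifitm genes lie far below it.

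Of the lists, cytokine and chemokine genes had the lowest medians in G2/M cells against other CD8 T cells (-1.11 at day +7 and -0.81 at day +14), with 3 of 6 genes at least 2-fold lower at day +7 and 0 of 5 at day +14. Ccl5, which draws T cells and monocytes, was at 1238 CPM in G2/M cells, 1293 CPM in S phase cells and 4623 CPM in remaining CD8 T cells at day +7. At day +14 it was at 4056, 4433 and 12378 CPM. Ccl3 and Ccl4 had log2 ratios over other CD8 T cells of -0.88 and -1.35 at day +7 and -0.81 and -0.72 at day +14, and all 6 cytokine genes tested at day +7 and all 5 at day +14 had ratios below 0. Xcl1, which draws cross-presenting dendritic cells, was at 7.66 CPM [6.58, 8.85] in G2/M, 32.4 CPM in S phase and 57.7 CPM in remaining cells at day +7, and at 74.1 CPM [70.8, 77.6], 102 and 182 CPM at day +14. At 4000 UMIs per cell Ccl5 was found in 62.8% of G2/M and 79.8% of remaining cells at day +7 and in 95.9% and 96.2% at day +14. In the granulocyte-gene barcodes it was found in 4.35% at day +7 and 35.3% at day +14. Ifng was at 140.4 and 144 CPM in G2/M cells, with a log2 ratio of 0.04 between the days.

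**Figure D5:**
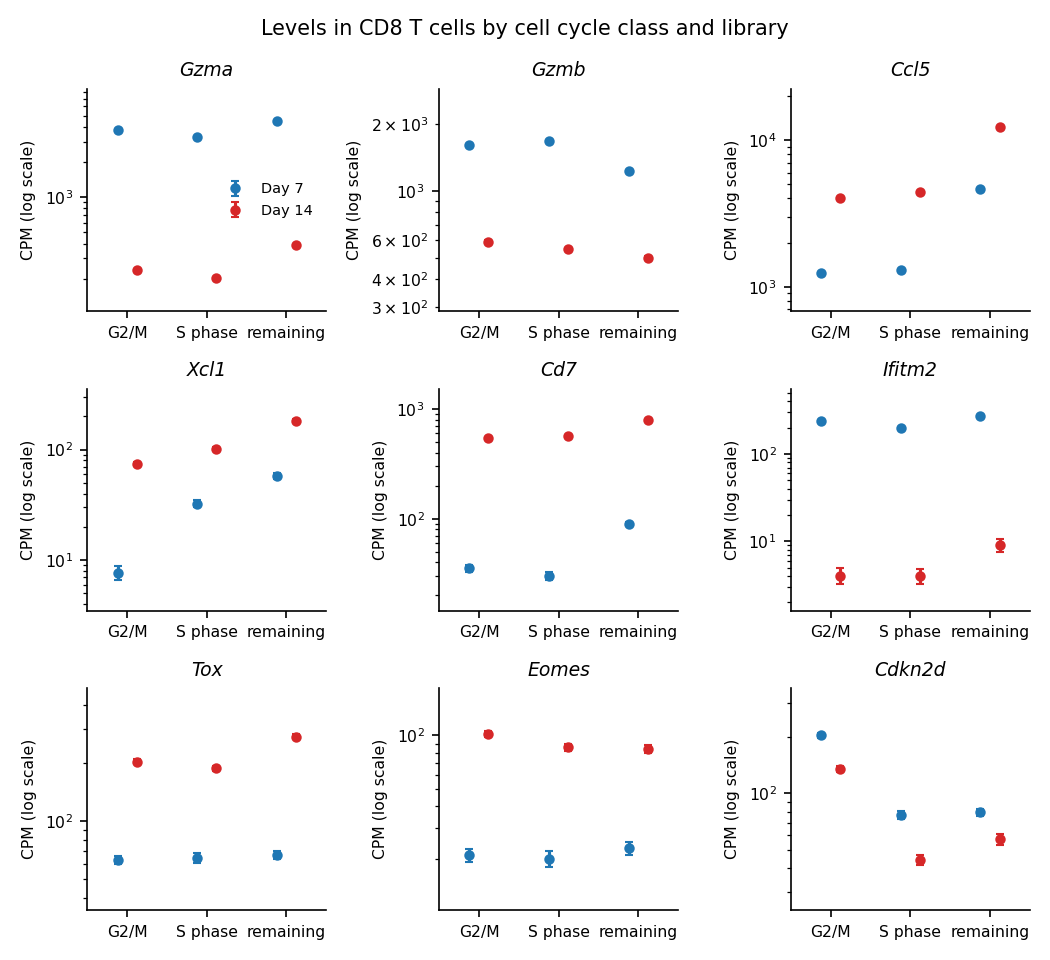
Level (CPM, log scale, a separate axis per gene) of 9 genes in G2/M, S phase and remaining CD8 T cells at day +7 (blue) and day +14 (red), with bars for exact Poisson 95% intervals that cover counting error only. Day separates the levels of Gzma, Gzmb, Cd7, Ifitm2, Tox and Eomes in all 3 classes, Ccl5 and Xcl1 are highest in remaining cells, and Cdkn2d is highest in G2/M cells.

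Gzma, Ifitm2, Cd7, Eomes and Xcl1 had the same direction between the days in S phase and remaining CD8 T cells as in G2/M cells. In remaining CD8 T cells the log2 ratios of day +14 over day +7 were -3.52 for Gzma, -4.78 for Ifitm2, 3.14 for Cd7, 1.82 for Eomes and 1.64 for Xcl1, and in G2/M cells they were -4.01, -5.58, 3.90, 2.22 and 3.12. In S phase cells they were -4.01, -5.33, 4.21, 2.05 and 1.63. The granulocyte gene S100a9 and Lyz2, a lysozyme gene of myeloid cells, did not keep one direction: their log2 ratios were 1.41 and 1.43 in G2/M, -1.96 and -1.28 in S phase and 3.94 and 3.15 in remaining cells. Whether these differences differ between the classes was not tested.

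The oxidative pentose phosphate pathway (PPP), which makes NADPH and ribose for dividing cells, was neither higher in G2/M cells nor far apart between the days. Pgd, the 6-phosphogluconate dehydrogenase gene that the study blocks, was at 40.4 CPM in G2/M and 44.3 CPM in other CD8 T cells at day +7, and at 51.2 and 55.0 CPM at day +14. The log2 ratio between the days in G2/M cells was 0.33 [0.22, 0.46], against a median of 0.16 over all genes. G6pdx, the first enzyme, was at 17.6 and 18.1 CPM, Pgls, the second, at 200.4 and 219 CPM, and G6pd2 was at 0.0421 CPM at day +7 and 0 at day +14. The 4 genes summed to 258 CPM [252, 265] at day +7 and to 288 CPM [281, 295] at day +14. Of the non-oxidative genes, the transaldolase gene Taldo1 was at 310.2 and 268 CPM and the transketolase gene Tkt at 187 and 231 CPM.

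Glycolytic genes were together higher at day +14. The list summed to 4711 CPM [4684, 4739] at day +7 and to 7357 CPM [7323, 7390] at day +14, with 4 of 17 genes at least 2-fold higher, none lower, and a median log2 ratio of 0.68. The lactate transporter gene Slc16a3 went from 10.1 to 57.2 CPM (2.39 [2.30, 2.70]). The other 3 were Slc2a1, a glucose transporter gene (10.7 and 28.1 CPM), Tpi1 (225 and 561 CPM) and Pfkl (19.2 and 39.7 CPM). Ldha, lactate dehydrogenase, was at 653 and 1144 CPM, Gapdh at 1856 and 2439 CPM and Aldoa at 481 and 769.6 CPM. Against other CD8 T cells the medians of the list were 0.02 and 0.09. Nucleotide synthesis genes had a median of 0.30 between the days, with Nme1 at 547 and 527 CPM, and 1 of 20, Shmt1, was at least 2-fold higher.

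G2/M cells of the higher score held less of the S phase genes and no fewer effector transcripts. From cells at 10 to 15 per 10000 to those at 25 or more, the 6 S phase genes went from 814 to 412 CPM at day +7 and from 1136 to 554 CPM at day +14. Over the same bins Gzma was at 3314 and 4336 CPM at day +7 and at 221 and 331 CPM at day +14. The cytotoxic list summed to 8675 and 10570 CPM at day +7 and to 4605 and 5627 CPM at day +14. Cdk1, which the rule did not use, went from 151 to 424 CPM at day +7 and from 195 to 431 CPM at day +14, and Aurka from 41.4 to 122 CPM and from 45.4 to 102 CPM. Of 11 homing genes tested between the days, Ccr2 was the 1 that was 2-fold lower and none was 2-fold higher. Itga4, an integrin chain of gut and inflamed-tissue homing, was at 423 CPM at day +7 and at 391 CPM at day +14, and Cx3cr1, a receptor of cytotoxic effector cells, was at 50.9 against 40.0 CPM in other CD8 T cells at day +7 and 75.8 against 48.7 CPM at day +14.

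Some named genes belong to other lineages. Igkc, an immunoglobulin light chain gene of B cells, was at 29.7 CPM in G2/M cells at day +7 and 123 CPM at day +14, and Ighm was at 96.6 and 40.6 CPM, so the B cell genes did not move together. Camp, a granulocyte peptide gene, was at 26.5 and 105 CPM, S100a9 at 133 and 356 CPM, S100a8 at 210.3 and 358 CPM and Ngp at 55.2 and 101 CPM. With cells of 10 or more granulocyte UMIs left out, the log2 ratios of Camp, S100a8, S100a9 and Ngp between the days were 1.86, 1.09, 1.07 and 1.19, and those of Ngp over other CD8 T cells were -0.02 at day +7 and -0.04 at day +14. Their source was not tested. The share of 2-fold genes changed little without those cells, with 123 higher and 100 lower between the days.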

How the data were processed

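Donor T cells were profiled by 10x Genomics scRNA-seq in 2 libraries, 1 per day. The authors deposited UMI counts per gene and barcode, not normalized; the submitters' processing notes name Cell Ranger 6.1.2 and mm10. Depth was 87124828 UMIs over 7355 barcodes at day +7 and 84233811 over 8043 at day +14. Barcodes with 500 to 7500 genes and at most 15% mitochondrial UMIs were kept (7179 and 7794). No column was left out. UMIs were summed over cells, scaled to CPM and compared as log2 ratios with 1 CPM added where the 2 levels averaged 10 CPM or more; called means at least 2-fold. Cells are not replicates, so no test was made.

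Members and gene lists were chosen with earlier results of these data known. Named genes are the rule's genes, Cd8a, Cd8b1, 4 oxidative PPP genes, the 3 highest of each list, and the 10 highest and 10 lowest ratios of each comparison among genes at 50 CPM or more; others are said to be named after their values were seen. Mx1 of the interferon list is not among the genes used here. Promoters came from RefSeq (GRCm38.p6), with 1 entry per symbol. The authors removed doublets with Scrublet in their own analysis. Here Scrublet was run in scanpy 1.11.5 (Python 3.11.15); pandas 2.3.3, numpy 2.4.6 and scipy 1.17.1 did the rest. The calculations were tested on simulated data.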

Additional observations from a re-analysis of the deposited data

Results flagged for a closer look

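S100a9, a calcium-binding protein gene of granulocytes, went opposite ways in the 2 libraries when G2/M cells were set against other CD8 T cells. Its log2 ratio was -1.17 at day +7 (133 against 301 CPM) and 0.91 at day +14 (356 against 189 CPM). The difference between the libraries was not tested. With cells of 10 or more granulocyte UMIs left out, an alternative added after the data were seen, the ratios were -0.46 at day +7 and -0.37 at day +14.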

How the results depend on the processing

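No paired analysis was possible because there was 1 library per day. The shares of G2/M cells at day +7 and day +14 were 44.8% and 43.4% at a threshold of 5 per 10000, 11.6% and 13.9% at 20, 31.0% and 33.2% at 4000 UMIs per cell, and 26.3% at day +14 without cells that had a UMI of other lineages (26.0% at day +7). Shares with S phase transcripts were 26.2% and 41.0%, 5.96% and 14.9%, and 24.0% and 39.4% under the first 3 of these settings, and 26.8% at day +14 under the last.

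Of genes of G2/M cells between the days, 81 were 2-fold higher when scaled by the median ratio, 83 with 5 CPM added, 379 with 240 lower when no filter was used, and 24 with 44 lower at a mean of at least 50 CPM. Against other CD8 T cells at day +7, 39 were lower at a threshold of 20 and 40 without a filter, and at least 50 CPM left 89 higher and 3 lower. At day +14 the 9 lower genes became 17 at a threshold of 5, 19 at 20, 15 without the highest Scrublet scores, 17 without cells of other lineages, 28 at 4000 UMIs, 35 by the mean of CPM per cell, 5 with 5 CPM added and 32 without a filter. At least 50 CPM left 78 higher and 0 lower there. A stricter or absent filter changes how many genes are tested, and the cause of the other shifts was not tested.

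Ngp over other CD8 T cells at day +14 turned from 1.53 to -0.09 without cells of other lineages and to -0.04 without cells of 10 or more granulocyte UMIs. The medians of the macrophage and B cell lists between the days turned to -0.23 without a filter and to 0.39 at 50 CPM. Gzma, Gzmb, Cd7, Xcl1, Ccl5, Tox, Eomes, Ifitm2 and the histone median kept their 2-fold call between the days under all 13 settings run. With 1 library per day, depth bounds counting error only, and differences between mice are not measured.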
